A study of Arabidopsis thaliana with 4 samples.

Results

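The genes described here are 10 GRAS regulators of Arabidopsis thaliana that are not DELLA genes: SCL3, SCR, SHR, PAT1, SCL21, HAM1, HAM2, HAM3, SCL8 and SCL14. They were taken by locus, and all 10 were found among the 27444 nuclear coding genes of the gene table under these symbols. GRAS proteins are plant regulators that share a conserved C-terminal domain, and many work through DNA-binding partners such as the INDETERMINATE DOMAIN (IDD) zinc-finger factors. DELLA proteins, of which RGA is one, are GRAS proteins that repress growth until gibberellin (GA) has them degraded through the F-box protein SLY1. Among the other GRAS proteins, SCL3 opposes DELLA in GA responses, SHR and SCR pattern the root together, the HAM proteins keep meristems active and are targets of miR170 and miR171, PAT1 and SCL21 act in phytochrome A light signalling, and SCL14 works with TGA factors on stress genes.

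ChIP-seq, which sequences the DNA that comes down with a protein, was used to map FLAG-tagged RGA in seedlings grown for 10 days in continuous light, with beads that bind the tag. The 4 libraries were FLAG-RGA in sly1 dP (the wild type here), FLAG-rga11 in sly1 dP (rga11 being labelled as mutant RGA), a control of the mutant that carries the label sly1 dP, and a control of the wild type that carries the label RGA sly1 dQ. All 4 groups thus carry sly1 in their label, and what dP and dQ stand for, the promoter of the construct and the number of lines or plants are not given in the labels. With 1 library in each group, a comparison of the lines has no replicate check, and no test was made. The title of the series is about the part of DELLA called PFYRE and its role in chromatin association, so the comparison asks which of these genes RGA marked and which the mutant protein marked.

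The authors called peaks for each tagged line against a control library, giving 6116 peaks for FLAG-RGA and 505 for FLAG-rga11. A gene counts as marked when a summit, the highest point of a peak, lies inside it or within 1 kb of either end. The fold of a peak is the authors' ratio of ChIP to control coverage at the summit with a pseudocount of 1, and it ranks peaks within 1 list only. The number of ChIP fragments over a summit and the control level there were solved from the authors' fold and p. Intervals on fragment numbers are exact 95% Poisson intervals and cover counting error only. Peak positions are those of TAIR10, and the gene table gave no strand, so the start and the end of a gene were not told apart. In the mutant list the control goes by other names, sly1_dQ and sex, than its label, sly1 dP. Every value of that list thus rests on a control library that was not settled.

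Wild-type RGA marked 5 of the 10 genes: SCL3, SHR, HAM1, HAM3 and SCL8. Of all coding genes 23.2% were marked by the same rule, which would give 2.32 of 10. GRAS members of this set are 2173 to 2927 bp long, and among coding genes of that length 26.3% were marked. SCR, HAM2, PAT1, SCL21 and SCL14 had no called summit within 1 kb. With a summit inside the gene required, 3 of the 10 were marked (SCL3, SHR and HAM3) and 13.2% of coding genes. With a −log10 q of at least 10 required, 3 were marked (SCL3, HAM1 and HAM3) and 6.54% of coding genes. In the mutant list none of the 10 genes had a summit within 1 kb, where 1.79% of coding genes did. At that rate 0.179 of 10 genes would be marked, so the absence of marked genes in the mutant list is not below its background.

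**Figure D1:**
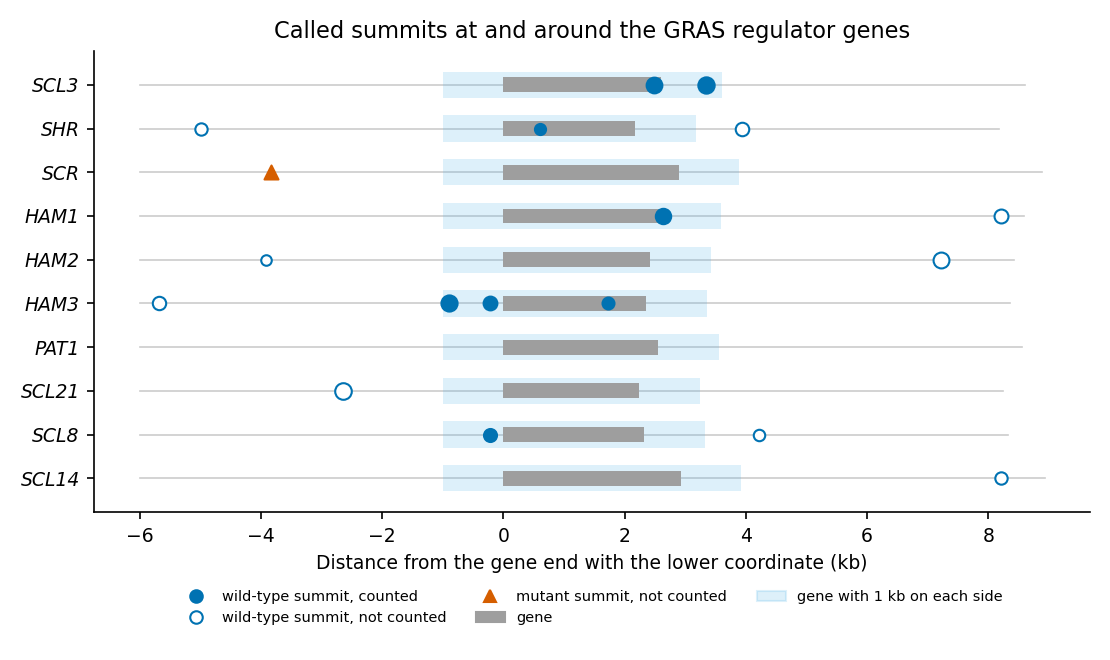
Called summits around each of the 10 genes, with the distance in kb from the gene end that has the lower coordinate; grey bars are genes, the pale band adds 1 kb on each side, and the area of a circle grows with the fold. Filled circles, the 8 wild-type summits that count, lie at SCL3, SHR, HAM1, HAM3 and SCL8, and the only mutant summit in view lies 3826 bp from SCR.

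The map of summits shows that the 8 counted wild-type summits were spread unevenly, with 3 at HAM3, 2 at SCL3 and 1 each at SHR, HAM1 and SCL8. Of all coding genes 3.98% had at least 2 summits within 1 kb and 0.670% had at least 3. Among marked coding genes these shares were 17.2% and 2.89%. Of the 8 summits 3 lay inside a gene of the set and 5 outside. Of all wild-type summits 65.3% lay inside a coding gene, but that share has no limit on the distance to a gene. The 8 summits were taken for lying within 1 kb of a member, so these shares are not alike. By gene, 3 of the 5 marked members and 3628 of the 6368 marked coding genes had a summit inside. Another coding gene lay within 1 kb of 1 of the 8 summits, the outer one at SCL3, and 7 had no other annotated gene of any kind that close.

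SCL3 (AT1G50420), which is itself known as a direct DELLA target and feeds back on GA signalling, carried the peak with the highest fold of the set, though the outer HAM3 peak had a higher −log10 q and more fragments. Its outer peak ran over chr1:18680716-18681149 with the summit 733 bp beyond the gene, a fold of 4.38 and a −log10 q of 20.5. Over that summit lay 68 ChIP fragments (52.8 to 86.2) against a control level of 14.8. DWF5 (AT1G50430), a sterol reductase gene of brassinosteroid synthesis, lies 899 bp from the same summit on its other side, so this peak is not assigned to SCL3 alone. The inner peak lay inside the gene, over chr1:18680077-18680272, with its summit 119 bp from the gene end. It had a fold of 4.08, a −log10 q of 17.1 and 62 fragments (47.5 to 79.5) against a control level of 14.5, which is the genome background of the call. Both summits, 852 bp apart, thus stood at the same end of the gene over control levels at or next to background, and their fragment intervals overlap. The nearest mutant summit to SCL3 lay 127.6 kb away.

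SHR (AT4G37650) encodes the mobile factor that leaves the stele and switches on SCR in the neighbouring cell layer. It was marked by the peak with the lowest fold and −log10 q of the set, over chr4:17692238-17692381, with its summit inside the gene and 605 bp from the nearer end. The fold was 2.03 and the −log10 q 4.61, with 61 fragments (46.7 to 78.4) against a control level of 29.5. That control level is 2.04 times the genome background, while SCL3 had nearly the same number of fragments over a control level close to background. Of the wild-type list 76.6% of peaks had at least this fold. A stronger peak (fold 3.01) lay 1769 bp beyond the gene, inside AT4G37660, and did not count for SHR.

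SCR (AT3G54220), the partner and target of SHR in endodermis formation, stood in a stretch with few wild-type peaks. Its nearest wild-type summit lay 31.3 kb away, inside PUMP1, with a fold of 1.89, and only 7.17% of coding genes had their nearest summit at least that far. The wild-type list held 2 summits within 50 kb of SCR, where the median coding gene had 6 and the 10 genes had from 1 at PAT1 to 12 at HAM2. SCR alone of the 10 genes had a mutant summit nearer than any wild-type summit. That mutant summit lay inside AT3G54200, 3826 bp from SCR, with a fold of 1.96 over a control level of 5.55 times the mutant background.

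The HAM genes, whose proteins bind WUSCHEL-type homeodomain factors in meristems, differed from each other. HAM3 (AT4G00150) had 3 wild-type summits, HAM1 (AT2G45160) had 1 and HAM2 (AT3G60630) had none within 1 kb.

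At HAM3 the peak with the highest fold was the farthest out, over chr4:56136-56517, with its summit 895 bp from the gene, a fold of 4.29 and a −log10 q of 27.0. It had 92 fragments (74.2 to 112.8) against a control level of 20.7. The middle peak, over chr4:56848-57008, had its summit 224 bp from the same gene end, a fold of 3.13 and 55 fragments (41.4 to 71.6) against a control level of 16.9. These 2 summits lay 671 bp apart in the space next to HAM3, with no other gene within 1 kb of either. The third peak, over chr4:58448-59043, was the widest of the set at 596 bp and had its summit inside the gene, 630 bp from the other end. It had the most fragments of the set, 113 (93.1 to 135.9), but a fold of 2.36, since its control level of 47.2 was 3.27 times the background. Fold and fragment number thus gave different orders at HAM3: the inner peak was lowest by fold and highest by fragments.

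HAM1 had 1 peak, over chr2:18620412-18620561, with its summit 44 bp beyond one gene end. Its fold was 3.88 and its −log10 q 16.6, with 64 fragments (49.3 to 81.7) against a control level of 15.7. Next to this single strong peak, a wild-type summit 5624 bp from HAM1 (fold 3.19) and a mutant summit 6726 bp from it (3.03) lay 1102 bp from each other, the first 113 bp and the second 20 bp from AT2G45180. Those peaks did not overlap, and neither counted for HAM1. Around HAM2 the nearest wild-type summits lay 3916 bp away, inside CDS5 (fold 1.83), and 4803 bp away on the other side, inside the autophagy gene ATG8G (4.14).

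SCL8 (AT5G52510) had 1 peak, over chr5:21306676-21306917, with its summit 220 bp outside the gene. Its fold was 2.79 and its −log10 q 6.97, with 45 fragments (32.8 to 60.2), the fewest of the set, against a control level of 15.5. A second wild-type summit 1895 bp away (fold 2.16) lay inside OVA6 and did not count for SCL8. The peak was above the list median by fold, with 26.7% of wild-type peaks at or above it.

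Of the set, PAT1 and SCL21, which act in phytochrome A signalling, and SCL14, the TGA partner, were not marked. PAT1 (AT5G48150) had the most distant wild-type summit of the 10 genes, 39.1 kb away near BBX8 (fold 3.42), and 4.99% of coding genes had their nearest one at least that far. SCL21 (AT2G04890), the other gene of that light pathway in the set, had a summit 2640 bp away with a fold of 4.53, higher than any peak of the marked genes. That summit lay 112 bp from ZAP1 (AT2G04880), a WRKY factor gene, and so fell outside the rule for SCL21. SCL14 (AT1G07530) had its nearest wild-type summit 5282 bp away (fold 2.51), close to the median distance of 5423 bp over all coding genes.

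**Figure D2:**
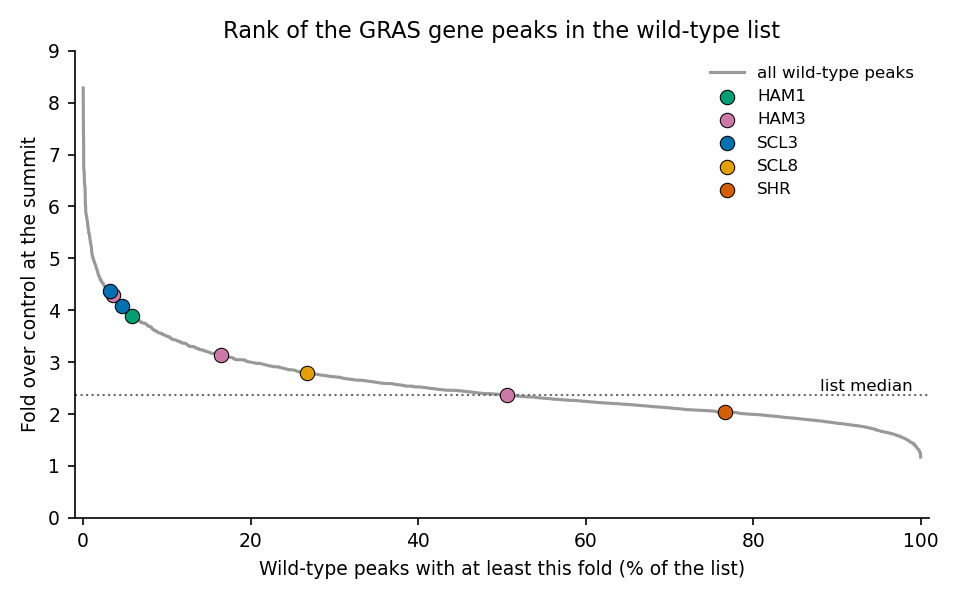
Fold over control at the summit against the percentage of the 6116 wild-type peaks with at least that fold; the grey line is the whole list and each point is 1 of the 8 peaks at the marked GRAS genes. Both SCL3 peaks and the outer HAM3 peak lie in the upper 5% of the list. The SHR peak lies below the dotted line, the list median of 2.37, and the inner HAM3 peak (2.36) lies just below it.

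In the plot of fold against rank, the 8 peaks ran from 2.03 to 4.38 with a median of 3.51, and the whole list had a median of 2.37. The upper 5% of the list held 3 of them, the upper 10% held 4, and 6 were above the list median. A −log10 q of 10 or more was reached by 6 of the 8 and by 29.2% of the wild-type list. At the 5 marked genes the highest fold per gene had a median of 3.88, and over all 6368 marked coding genes it was 2.37. These values describe peaks that had already passed the call.

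**Figure D3:**
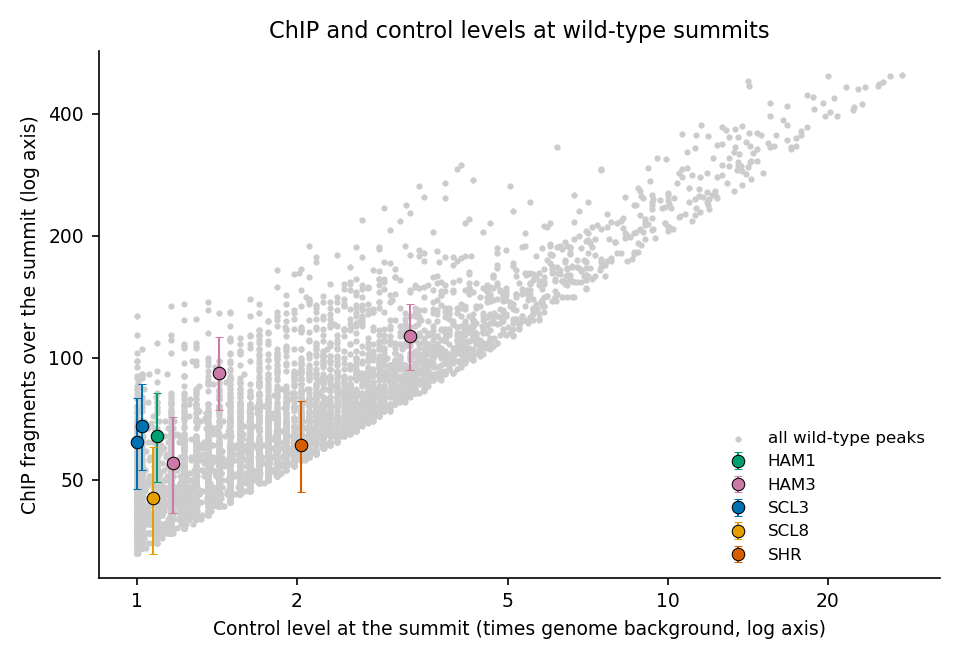
ChIP fragments over the summit against the control level at the summit in multiples of the genome background, both on log axes; grey points are wild-type peaks, coloured points the 8 peaks at the GRAS genes, and bars exact 95% Poisson intervals (26 peaks with a control level over 30 times background or over 500 fragments are not drawn). The peaks at SCL3, HAM1 and SCL8 and the middle HAM3 peak, 5 in all, lie near the left edge, and the SHR and inner HAM3 peaks lie at control levels above 2 times background.

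The plot of ChIP against control levels sets the strength of the peaks beside the background under them. ChIP fragments ranged from 45 to 113 with a median of 63, against 62 in the whole list. Control levels ranged from 1 to 3.27 times background with a median of 1.13, against 1.63 in the whole list. Below 2 times background lay 6 of the 8 peaks and 63.2% of all wild-type peaks. The higher folds at SCL3 and HAM1 thus came with fragment numbers near the list median and control levels near the lowest of the call. The SHR and inner HAM3 summits, both inside genes, had the highest control levels of the set, and the part of control signal in their folds was not tested.

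**Figure D4:**
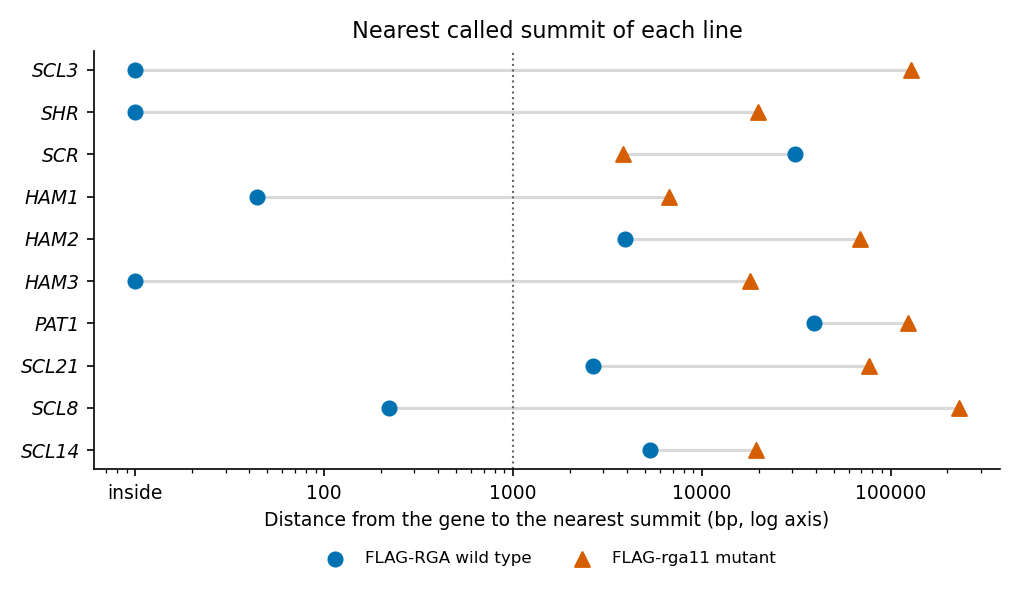
Distance in bp, on a log axis, from each gene to its nearest wild-type summit (circles) and nearest mutant summit (triangles); summits inside a gene are drawn at the left, and the dotted line marks 1 kb. Wild-type summits lie left of the line for 5 genes, and no mutant summit does.

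The mutant protein had no called peak near any of the 5 marked genes. None of the 8 wild-type peaks overlapped a mutant peak, while 4.73% of all wild-type peaks did, which would give 0.378 of 8. As the plot of nearest summits shows, the mutant summits nearest to the marked genes were 6726 bp from HAM1, 17.9 kb from HAM3, 19.8 kb from SHR, 127.6 kb from SCL3 and 229.0 kb from SCL8. The median distance over the 10 genes was 44.4 kb, against 94.1 kb over all coding genes. Within 10 kb lay a mutant summit for 2 of the 10 genes, SCR and HAM1, and for 8.37% of coding genes.

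The mutant call worked at lower coverage after scaling, with a genome background of 7.21 against 14.5 in the wild-type call. Its ChIP coverage had been multiplied by 0.470. Before that scaling, the ChIP depth at background was 15.3 in the mutant and 14.5 in the wild type. The lowest −log10 p was 6.03 in the mutant call and 5.05 in the wild-type call. At background, a fold of 2.93 was needed in the mutant call and 2.20 in the wild-type call. With ChIP fragments and control levels of the wild-type peaks scaled to the mutant call, 6 of the 8 peaks still reached a −log10 p of 6.03, and 35.6% of the whole wild-type list did. These were both peaks at SCL3 (12.1 and 10.3), the peak at HAM1 (10.1) and all 3 at HAM3 (15.5, 8.40 and 7.07). The peaks at SCL8 (5.17) and SHR (3.84) did not reach it. This scaling used peaks that had passed the wild-type call, with their wild-type control levels and without counting error. Whether coverage accounts for the lack of mutant peaks was not tested for any marked gene. Signal below the call in the mutant was not analysed here.

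**Figure D5:**
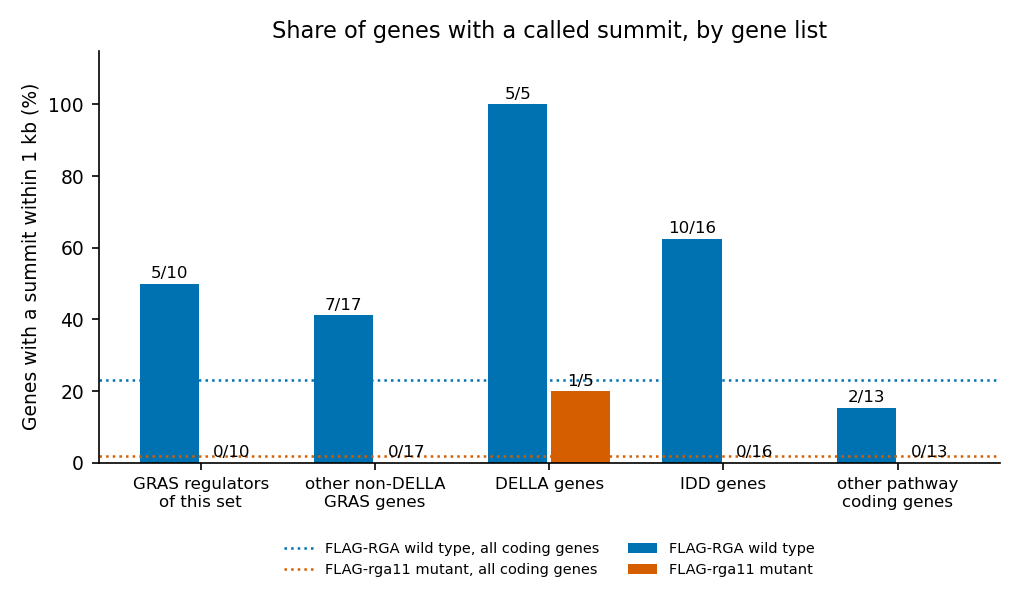
Percentage of genes with a called summit inside or within 1 kb in the wild type (blue) and the mutant (orange), for 5 gene lists, with the number of genes above each bar; dotted lines give the share of all coding genes, 23.2% and 1.79%. The wild-type bar of the other pathway genes alone lies below its dotted line.

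The rest of the GRAS family and the partners of these proteins were counted by the same rule, in lists put together with earlier results of these data known. Of 17 other non-DELLA GRAS genes 7 were marked in the wild type, a share of 41.2% beside 23.2% of coding genes and 50% of the set. By highest fold they were AT4G08250 (3.75), AT3G46600 (3.69), AT3G49950 (3.04), AT3G50650 (2.56), HAM4 (2.48), SCL23 (2.21) and AT5G66770 (1.94). Of these, 5 had 2 summits each, among them HAM4, the fourth HAM gene, and SCL23, a close relative of SCR. AT4G08250, HAM4 and SCL23 have another coding gene within 1 kb of their highest peak. SCL13, which acts in phytochrome signalling like PAT1, and LAS, a gene of axillary meristems, were not marked, with nearest summits 5437 bp and 38.5 kb away.

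All 5 DELLA genes were marked in the wild type, beside 23.2% of all coding genes. The only GAI summit lay 959 bp outside the gene, and with a flank of 500 bp 4 were marked, without GAI (18.7% of coding genes). At a −log10 q of at least 5 it was also 4, without RGL1 (16.4%). The highest RGL2 peak has another coding gene, AT3G03440, within 1 kb. Highest folds of the 5 DELLA genes were 3.77 at GAI and 1.78 to 2.19 at the other 4, RGL1, RGL2, RGL3 and RGA. The median highest fold was 1.96, lower than the 3.88 of the marked genes of the set, and this difference was not tested. The peaks at RGA, RGL1, RGL2 and RGL3 had 78 to 191 fragments over control levels of 2.72 to 5.99 times background. At GAI there were 103 fragments at 1.84 times background. Peaks of the set had 45 to 113 fragments at 1 to 3.27 times background, so the lower DELLA folds did not come with fewer fragments. RGA alone of the 5 was marked in the mutant too, with 3 summits and a highest fold of 3.03, beside 1.79% of coding genes. Fragments from a transgene copy of RGA were not told apart from the gene.

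IDD factors, which tether GRAS proteins to DNA, had 10 of 16 genes marked in the wild type (62.5%, beside 23.2% of all coding genes). None of the 16 was marked in the mutant, where only 1.79% of coding genes were. The highest wild-type folds were 4.78 at IDD5, 4.44 at AT3G45260 and 3.95 at AT1G14580. IDD1 (3.21), IDD16 (3.11), MGP (2.98), IDD4 (2.46), IDD14 (2.40), IDD11 (2.39) and IDD12 (2.08) followed. MGP is a target and partner of SHR and SCR. JKD, which restricts SHR movement together with SCR, and NUC were not marked, with nearest wild-type summits 2903 bp and 12.6 kb away.

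Of 13 other coding genes that work with the set 2 were marked (15.4%, beside 23.2% of all coding genes). The marked genes were FHL (3.26), which carries phytochrome A into the nucleus, and the photoreceptor gene PHYA (2.75), which had 2 summits. Both have another coding gene within 1 kb of their highest peak. No summit was called within 1 kb of the cyclin gene CYCD6;1, an output of SHR and SCR, of the homeobox genes WUS, WOX4, WOX5 and WOX9, of TGA2, TGA5 and TGA6, or of FHY1, FHY3 and FAR1. Nor was any of the 4 miRNA genes that produce miR170 and miR171 marked, where 6.13% of 326 miRNA genes were. Their nearest wild-type summits lay 4273 bp from MIR170, 4501 bp from MIR171a, 5047 bp from MIR171b and 6381 bp from MIR171c. In the mutant list none of these 13 coding genes and 4 miRNA genes was marked, beside 1.79% of all coding genes and 1.23% of miRNA genes.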

How the data were processed

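Chromatin of seedlings fixed with 1% formaldehyde for 20 min was incubated with FLAG-M2 beads for 2 h, per the labels' protocols. Tools named in the submitters' processing notes are MACS2 2.2.7.1, Bowtie2 2.4.5, deepTools 3.1.3 and Trimmomatic 0.39, and the genome is TAIR10. The deposited values of each peak are a fold (the ratio of ChIP to control at the summit), a −log10 p and a −log10 q; the deposited score was not used. Lowest values of −log10 q were 3.00 (wild type) and 3.01 (mutant). The lists hold part of the numbered peaks, by a filter that the sources used here do not give. Read totals were not analysed here.

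ChIP fragments and control level at each summit were solved from fold and p (Python 3.11.15, scipy 1.17.1). The solved pairs gave back the −log10 p to within 0.001 in 99.98% of the wild-type list and 100% of the mutant list. Mutant ChIP coverage had been scaled by 0.470. On simulated data, made with the formulas that the solving step inverts, 100% of 388 wild-type and 396 mutant peaks were recovered. The simulated control levels did not span the range of the real lists, so this checks the solving code only. Gene names and distances came from a RefSeq table of the TAIR10.1 assembly, whose nuclear chromosomes were taken to share positions with TAIR10; all 65 list entries matched. It gives no strand or sequence, so gene starts, promoter motifs and sequences were not used, which departs from the planned design.

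Groups were taken from the labels. Members, lists and alternatives were chosen with earlier results of these data known. All members are named, as is every gene of another list with a summit within 1 kb in either line; unmarked genes singled out, and peaks beyond 1 kb, were chosen after their values were seen.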

Additional observations from a re-analysis of the deposited data

How the results depend on the processing

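The number of GRAS genes marked in the wild type was 5 of 10 with a flank of 500 bp (18.7% of coding genes marked) or 2 kb (30.3%), the nearest coding gene only (16.9%), overlap of the peak interval (24.2%) and control levels at most 5 times background (22.0%). It was 4 with a −log10 q of 5 or more (16.4%) and with the 50% of peaks of higher fold (11.7%). With a summit inside the gene required it was 3 (SCL3, SHR and HAM3), beside 13.2% of coding genes, and at a −log10 q of 10 or more it was 3 (SCL3, HAM1 and HAM3), beside 6.54%. The inside rule left 5 IDD genes and 1 other pathway gene. A −log10 q of 10 or more left 5 IDD, 4 other GRAS, 2 DELLA and 1 other pathway genes in the wild type, and 0 DELLA genes in the mutant. The upper 50% by fold left 1 DELLA gene and 1 member summit inside a gene. The mutant count of 0 of 10 and the overlap of 0 of 8 peaks were the same in all alternatives run. A narrower rule cannot raise a count of 0, and the nearest mutant summit to any of the 10 genes lay 3826 bp away. These alternatives therefore could not have changed either count. Folds without the pseudocount lay within counting error of those given. Scaling to the mutant call and the share of genes of member length were added after the data had been seen. No paired analysis was possible because each group had 1 library. The scaled coverage of the mutant call limits what its list can show. Scaled to that call without counting error, the SHR and SCL8 peaks did not reach its lowest −log10 p. The part of coverage in the mutant counts was not tested.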
